A study of Homo sapiens with 4 samples.

Results

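The genes described here build extracellular microfibrils and hold transforming growth factor beta (TGF-beta) in its latent form. They were chosen by their role and not by their values, and they numbered 10 of the 47251 genes in the deposited gene table. There were 4 microfibril genes (MFAP2, MFAP5, FBN1 and FBN2), 4 latent TGF-beta binding protein genes (LTBP1, LTBP2, LTBP3 and LTBP4) and 2 ligand genes (TGFB1 and TGFB2). MFAP2 is also the gene that the study silenced.

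RNA was sequenced from AGS cells, a human gastric adenocarcinoma line grown in DMEM with fetal bovine serum. Short hairpin RNAs (shRNAs) are folded transcripts from which cells make small RNAs that direct the breakdown of a chosen mRNA. The sh-MFAP2 group held 2 libraries of cells infected with a lentivirus that carried an shRNA against MFAP2, and the control group held 2 libraries of cells that carried a control shRNA. All 4 libraries therefore came from infected cells of the same line, 1 shRNA stood for the silencing, and the labels do not say whether the libraries of a group came from separate cultures. P-values thus measure the spread between these libraries, which may be technical.

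Microfibrils are thin filaments of the extracellular matrix whose backbone is made of fibrillins, encoded by FBN1 and FBN2. The small glycoproteins encoded by MFAP2 and MFAP5 bind to fibrillin, and elastin is laid down on the filaments in elastic tissue. TGF-beta is secreted bound to its own propeptide, and that complex is linked to an LTBP, which attaches it to microfibrils and other matrix. The ligand signals only after it is released from the propeptide, for example by integrins that contain the alpha v subunit. In most tissues fibroblasts and smooth muscle cells are the main producers of the fibrillins, whereas epithelial cells commonly make TGFB1.

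A difference in the estimated levels of transcripts of LTBP3 is described further on. The sequences of an exon that sets them apart, and of its junctions, are given here. Exon 24 of the 28 exons of the transcript ENST00000301873 (chr11:65540013-65540153, minus strand, GRCh38 with GENCODE 29) lies in the coding sequence and is left out of ENST00000322147, which has 27 exons. It has 141 bases, which make 47 codons, so that leaving it out keeps the reading frame. G and C made up 77.3% of it. The coding lengths of the transcripts are 3909 and 3768 bases. Their ends differ too, since ENST00000301873 spans 65538818 to 65558228 and ENST00000322147 spans 65538805 to 65557959. In the junctions below, capitals mark the first bases after the splice junction.
LTBP3 exon 24, ENST00000301873: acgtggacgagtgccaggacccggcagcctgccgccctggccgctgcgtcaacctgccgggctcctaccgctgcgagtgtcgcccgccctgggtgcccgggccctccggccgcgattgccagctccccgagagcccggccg
Junction into exon 24, ENST00000301873: gcccggaagagatggACGTGGACGAGTGCC
Junction that skips exon 24, ENST00000322147: gcccggaagagatggAGCGTGCCCCGGAGC

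The study links MFAP2 to the miR-29 family of microRNAs, so the sequences that the members share with it are also shown. A microRNA pairs with its targets mainly through its seed, bases 2 to 8, which are in capitals in the RefSeq mature sequences (GRCh38.p14) below and are the same in all 3.
hsa-miR-29a-3p: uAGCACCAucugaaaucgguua
hsa-miR-29b-3p: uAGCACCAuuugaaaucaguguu
hsa-miR-29c-3p: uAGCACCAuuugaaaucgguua
The reverse complement of this seed, TGGTGCT, was searched on the transcribed strand of the 3′ untranslated regions (UTRs) in GENCODE 29. It stood in 3 of the 10 members, with 2 matches in MFAP2, 2 in FBN1 and 1 in TGFB2. By comparison, 2270 of 18832 genes with a 3′ UTR (12.1%) had a match, at a median UTR length of 808 bases against 1116 bases for the members. The matches of MFAP2 lay on the minus strand of chromosome 1 of GRCh38. Each is given in a window of 23 bases, at chr1:16974910-16974932 and at chr1:16974848-16974870, with the match in capitals. The window of match 1 starts upstream of the 3′ UTR.
MFAP2 match 1: tgggagctgctagggTGGTGCTg
MFAP2 match 2: gggccctgcctgaccTGGTGCTt
A match is a stretch of letters and not a measured site, and no microRNA was measured in these libraries.

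The unit of the deposited values was taken as FPKM, a level scaled by length and library depth. For TGFB1 and LTBP1 the gene values matched a length of all annotated exonic bases (3238 and 7329), not that of 1 transcript. Gene values can therefore lie below those of a single transcript, as for LTBP4 in sh-MFAP2 replicate 1 (14.2 against 17.7 FPKM for ENST00000396819). Gene and transcript values are thus on unlike scales, and an order of genes by level depends on the annotated length. From the spacing of the low values, about 27300000 to 37300000 counted units per library were inferred, and 19658 to 20020 genes lay above 0. Testing was limited to genes whose mean reached 1 FPKM, which left 9873 genes and 4 of the 10 members. Of 8 epithelial marker genes 7 were tested. The summed level of the 8, mostly that of KRT8 and KRT18, was 1947 to 2030 FPKM in sh-MFAP2 and 1808 to 2034 FPKM in control. The markers were not all alike between the groups. CDH1, which was not tested, had 0.584 and 0.853 FPKM under sh-MFAP2, compared with 1.25 and 1.15 FPKM in control. CLDN7 and ESRP1 were also lower in both sh-MFAP2 libraries, as were 31.4% of all genes tested. In the other tested markers the groups overlapped. Of 10 fibroblast markers, 8 were under 0.1 FPKM in every library and the other 2, COL1A1 and PDGFRA, were present, with summed levels of 4.61 to 4.85 FPKM in sh-MFAP2 and 9.59 to 10.3 FPKM in control. All 5 endothelial markers were under 0.1 FPKM. The RNA is that of whole cultures, in which fewer cells expressing a gene and less RNA of it per cell cannot be told apart.

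The levels of the members fell into 2 ranges. The ligand gene TGFB1 had the highest mean (27.7 FPKM), followed by LTBP4 (13.0 FPKM), LTBP3 (3.51 FPKM), LTBP1 (1.46 FPKM) and LTBP2 (0.662 FPKM). None of these 5 overlapped with its neighbour in that order in any library. The 4 microfibril genes and TGFB2 were far lower, and no library exceeded 0.0906 FPKM for any of them. Among MFAP5, FBN2, FBN1, TGFB2 and MFAP2 each neighbour in the order overlapped with the next. Set against all genes above 0 in at least 1 library, TGFB1 had a higher mean level than 94.4% and LTBP4 than 87.9%, whereas MFAP5, the highest of the microfibril genes, had a higher mean level than 33.6%.

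**Figure D1:**
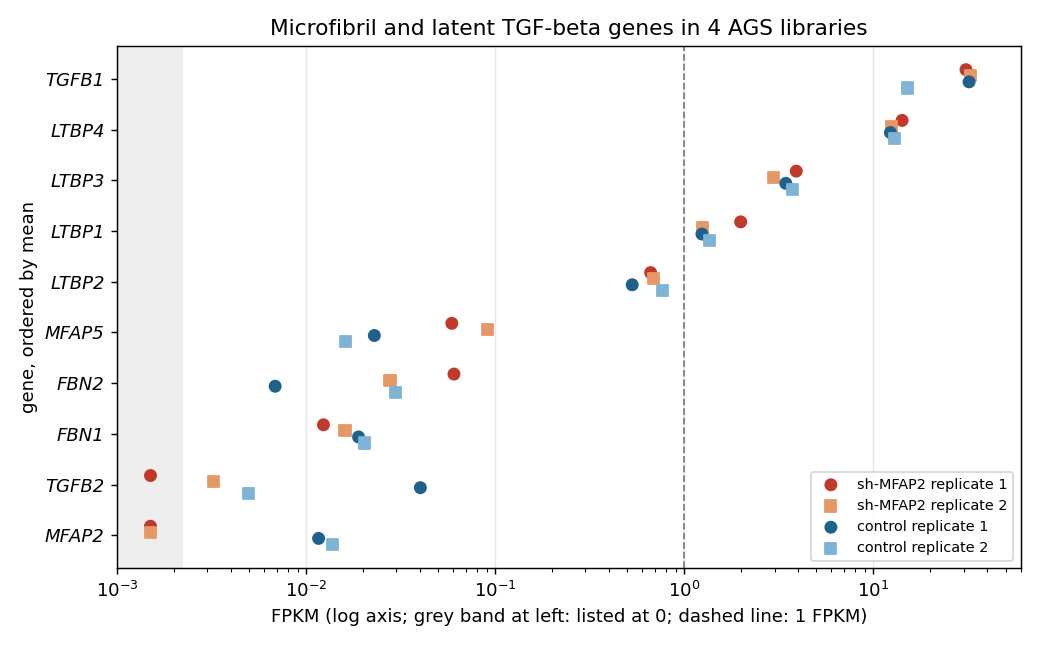
Level of each of the 10 genes in each of the 4 libraries, in FPKM on a log axis, with genes ordered from the highest mean at the top; points in the grey band are listed at 0 and the dashed line marks the mean of 1 FPKM needed for testing. The ligand TGFB1 and the LTBP genes lie between 0.530 and 32.7 FPKM, and the microfibril genes and TGFB2 at or under 0.0906 FPKM.

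MFAP2 (ENSG00000117122) encodes microfibril-associated glycoprotein 1 (chromosome 1 from 16974502 to 16980835, minus strand). In sh-MFAP2 replicates 1 and 2 its listed level was 0 FPKM, while control replicates 1 and 2 had 0.0116 and 0.0138 FPKM. The controls were thus above the silenced cells, but by values that correspond to 0.999 and 1.5 inferred units. With a floor of 3 units, MFAP2 was at or under the limit of detection in all 4 libraries, so no fold change is given, and the labels of the libraries could not be checked with it. Only 2 of its 6 listed transcripts were above 0 in any library. The main one, ENST00000375535, was listed at 0.0253 FPKM in control replicate 1 and 0.0106 FPKM in control replicate 2.

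To show which part of this transcript the study assayed by quantitative PCR, the positions of its primers were found in the reference. The forward primer ccaaccccagaaccaggaaa matched bases 522 to 541 of ENST00000375535, across the junction of exons 5 and 6 of 9. The reverse complement of the reverse primer cacggcggaggctgtagaag matched bases 656 to 675, across the junction of exons 7 and 8. They bound an amplicon of 154 bases in a transcript of 1260 bases. The match shows that the assay reads spliced coding sequence of the transcript that was barely detected by sequencing, and no value of that assay is given here. The study reported the knockdown by both this assay and western blot. By western blot it also reported more MFAP2 protein in gastric cancer lines, AGS among them, than in the gastric epithelial line GES-1.

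MFAP5 (ENSG00000197614, chromosome 12 from 8637346 to 8662888, minus strand) encodes the related microfibril-associated glycoprotein 2. Its level was 0.0589 FPKM in sh-MFAP2 replicate 1 and 0.0906 FPKM in replicate 2, against 0.0229 FPKM in control replicate 1 and 0.0161 FPKM in replicate 2. Both sh-MFAP2 libraries lay above both controls, and the values corresponded to 6.81 and 9.40 inferred units against 2.57 and 2.29. The controls were under the floor of 3 units, and MFAP5 was too low to enter the test.

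FBN1 (ENSG00000166147, chromosome 15 from 48408306 to 48645849, minus strand) encodes fibrillin-1, the main fibrillin of adult tissue. It had 0.0123 and 0.0160 FPKM under sh-MFAP2, compared with 0.0189 and 0.0202 FPKM in control, so that both sh-MFAP2 libraries lay below both controls. In inferred units these were 5.99 and 6.99 against 8.92 and 12.1. FBN2 (ENSG00000138829, chromosome 5 from 128257909 to 128659185, minus strand) encodes fibrillin-2, which is best known from development. It had 0.0604 and 0.0278 FPKM under sh-MFAP2, compared with 0.00685 and 0.0296 FPKM in control, and the groups overlapped because control replicate 2 was above sh-MFAP2 replicate 2. The lowest value, that of control replicate 1, corresponded to 2.66 inferred units, and the highest, that of sh-MFAP2 replicate 1, to 24.2.

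Of the 6 members with a mean under 1 FPKM, 4 had groups that did not overlap: MFAP2, FBN1 and TGFB2 were lower and MFAP5 was higher in sh-MFAP2. Among all 13933 genes that were above 0 in a library but had a mean under 1 FPKM, 28.9% had groups that did not overlap. That share includes genes above 0 in only 1 library, whose groups cannot be separate, whereas each of the 6 members was above 0 in more than 1. It therefore runs low as a baseline, and among the genes tested the share was 48.9%. The smallest two-sided p that an exact permutation test allows for 2 libraries against 2 is 0.333, so none of these separations could pass such a test.

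Most partners of the microfibril in elastic fibres were also low. Of 27 such genes, 24 were under 1 FPKM and 17 under 0.1 FPKM in every library. Elastin itself (ELN), EFEMP1 and COL6A2 were the 3 genes listed at 0 in all 4 libraries, chosen here after their values were seen. The 3 genes that were tested were LOXL3, COL6A1 and HSPG2. LOXL3, a lysyl oxidase that cross-links elastin and collagen, had 1.72 and 1.54 FPKM under sh-MFAP2, compared with 1.86 and 1.89 FPKM in control. COL6A1, a chain of the microfibrillar collagen VI, had 16.9 and 13.5 FPKM against 15.7 and 18.1 FPKM. HSPG2, the basement membrane proteoglycan perlecan, had 9.07 and 6.51 FPKM against 6.99 and 7.84 FPKM. None of the 3 was called, and the median log2 fold change of the list was -0.13, beside -0.05 for all genes tested.

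LTBP4, LTBP3 and LTBP1 encode the LTBPs that bind latent TGF-beta, and none of them differed between the groups beyond the spread of the libraries. LTBP4 (ENSG00000090006, chromosome 19 from 40592883 to 40629818, plus strand) had 14.2 and 12.4 FPKM under sh-MFAP2, compared with 12.3 and 12.9 FPKM in control. LTBP3 (ENSG00000168056, chromosome 11 from 65538805 to 65558930, minus strand) had 3.91 and 2.95 FPKM under sh-MFAP2, compared with 3.44 and 3.74 FPKM in control. LTBP1 (ENSG00000049323, chromosome 2 from 32946972 to 33399509, plus strand) had 1.99 and 1.25 FPKM under sh-MFAP2, compared with 1.24 and 1.36 FPKM in control. In each of these genes the groups overlapped, and for LTBP1 a single library, sh-MFAP2 replicate 1, stood above the other 3.

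On the log2(FPKM + 1) scale, sh-MFAP2 minus control, the difference for LTBP4 was 0.07 (standard error 0.119, 95% interval -0.27 to 0.41, adjusted p = 0.806 from limma). For LTBP3 it was -0.06 (standard error 0.153, 95% interval -0.50 to 0.38, adjusted p = 0.876 from limma). For LTBP1 it was 0.17 (standard error 0.179, 95% interval -0.34 to 0.68, adjusted p = 0.684 from limma). The intervals bound the differences that these libraries leave possible, and they do not show that the levels were equal. The signs of these small differences are not fixed, since each of the 3 turned in at least 1 alternative fit, as listed among the processing choices.

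LTBP2 (ENSG00000119681, chromosome 14 from 74498170 to 74612378, minus strand) encodes the LTBP that binds microfibrils but not latent TGF-beta. It had 0.663 and 0.688 FPKM under sh-MFAP2, compared with 0.530 and 0.765 FPKM in control. The sh-MFAP2 values lay between the controls. At a mean of 0.662 FPKM it was under the filter, although 140 to 255 inferred units lay behind each value. Its main transcript ENST00000261978 had 0.472 and 0.719 FPKM under sh-MFAP2, compared with 0.554 and 0.797 FPKM in control, and a shorter coding transcript, ENST00000556690, was listed at 0.332 FPKM in sh-MFAP2 replicate 1 and at 0 in the other libraries.

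The proportions of transcripts were separate between the groups for LTBP3 and LTBP4 and overlapped for LTBP1, while the gene values of all 3 overlapped. For LTBP3 the libraries of each group lay close together. The transcript that skips exon 24, ENST00000322147, had 6.48 and 4.78 FPKM under sh-MFAP2, compared with 3.61 and 3.72 FPKM in control. The transcript that includes it, ENST00000301873, had 1.36 and 0.978 FPKM under sh-MFAP2, compared with 1.84 and 2.07 FPKM in control. Of the summed level of the pair, the skipping form made up 82.7% and 83.0% in sh-MFAP2 and 66.2% and 64.2% in control. The means were 82.9% ± 0.215 (SD, n = 2) and 65.2% ± 1.41 (SD, n = 2), a difference of 17.7 percentage points. A further coding transcript, ENST00000536982, is absent from GENCODE 29, so whether it holds exon 24 is not known here. Its level moved with that of the including form, at 1.40 and 1.01 FPKM under sh-MFAP2, compared with 1.83 and 2.06 FPKM in control. With ENST00000536982 in the sum, the skipping form made up 70.2% and 70.7% in sh-MFAP2 and 49.6% and 47.3% in control.

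The single transcripts did not pass the test. The log2 fold change was 0.50 for ENST00000322147 (standard error 0.215, adjusted p = 0.680 from limma over 22312 transcripts) and -0.45 for ENST00000301873 (standard error 0.214, adjusted p = 0.688). For the share itself the exact permutation test could not go below 0.333. A separation of this kind was not rare. The 2 transcripts of LTBP3 with the highest means were ENST00000322147 and ENST00000536982, whose share differed by 17.1 points. Among 5157 genes with at least 2 transcripts at a mean of 1 FPKM, 12.3% had a share of the first that was separate between the groups by at least 15 points. That limit was chosen after the LTBP3 values were seen, and 36.3% had a share that was separate by any amount. The split of a gene's level among its transcripts was estimated by the authors' program, which is not given in the sources used here. Reads over the printed junctions were not analysed here. Since the LTBP3 transcripts also differ at their ends, whether the exon or the ends set the split was not tested.

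**Figure D2:**
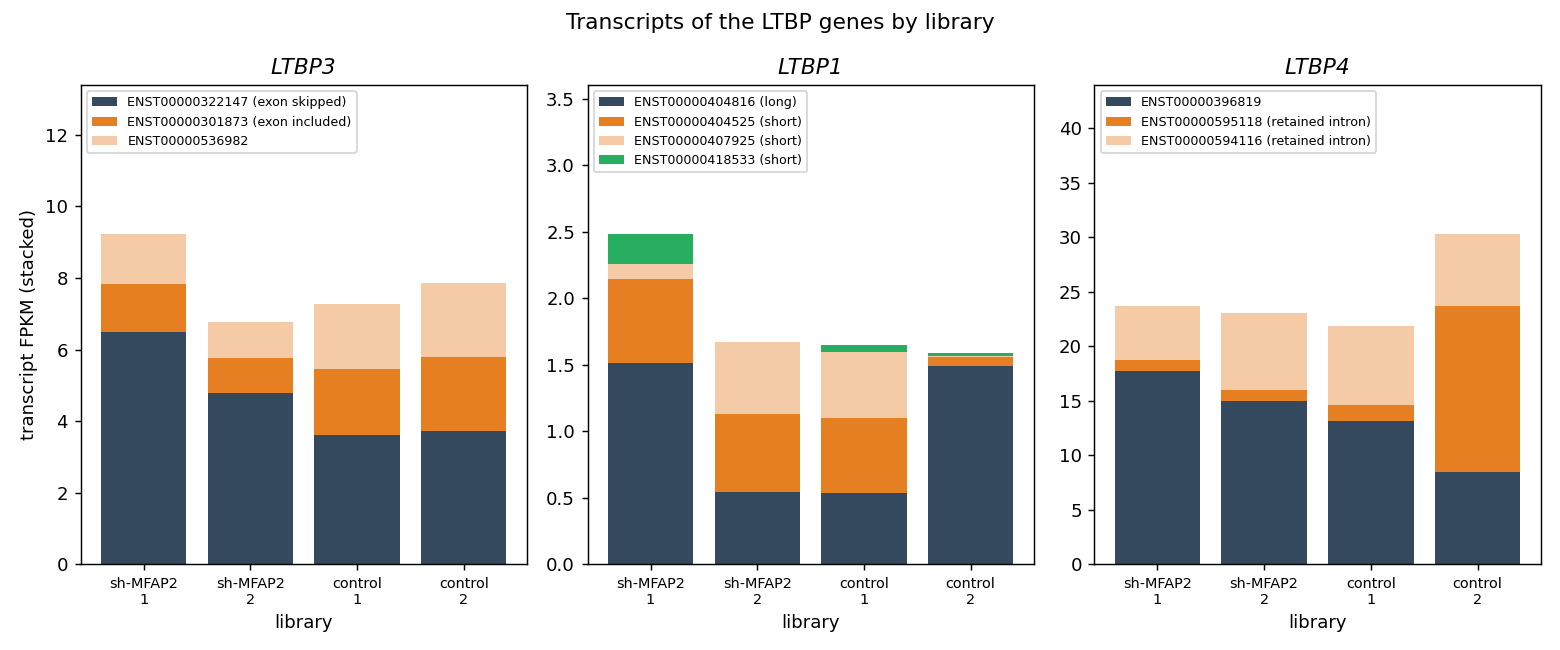
Stacked levels of the main transcripts of LTBP3, LTBP1 and LTBP4 in each library, in transcript FPKM. For LTBP3 the form that skips exon 24 takes a larger share of the pair in both sh-MFAP2 libraries (82.7% and 83.0%) than in both controls (66.2% and 64.2%), for LTBP4 the share of ENST00000396819 is also higher in both sh-MFAP2 libraries, with control replicate 2 far from the others, and for LTBP1 the groups overlap.

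LTBP1 is transcribed in a long form and in short forms that start further downstream and lack the first coding exons. The long form ENST00000404816 starts at position 32946972 of chromosome 2 and has 34 exons, and the short form ENST00000404525 starts at position 33134639 and has 30. The long form had 1.51 and 0.546 FPKM under sh-MFAP2, compared with 0.538 and 1.49 FPKM in control. It made up 60.8% and 32.7% of the sum of the long form and 3 short forms in sh-MFAP2, and 32.5% and 93.9% in control. The libraries of each group lay far apart in this share, and the groups overlapped. In control replicate 2 the short forms ENST00000404525 and ENST00000407925 were listed at 0.0642 and 0.0120 FPKM, against 0.563 and 0.493 FPKM in control replicate 1.

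The groups of LTBP4 were separate as well, and 1 library stood apart. Its main coding transcript ENST00000396819 had 17.7 and 14.9 FPKM under sh-MFAP2, compared with 13.2 and 8.48 FPKM in control. The transcript with the next highest mean, the retained intron form ENST00000594116, had 4.96 and 7.03 FPKM under sh-MFAP2, compared with 7.27 and 6.59 FPKM in control. Of the sum of these, ENST00000396819 made up 78.1% and 68.0% under sh-MFAP2 and 64.4% and 56.3% in control, so that the groups did not overlap and their means differed by 12.7 points. Another retained intron transcript, ENST00000595118, is outside the rule for naming transcripts and had 0.970 and 1.06 FPKM under sh-MFAP2 and 1.48 FPKM in control replicate 1, but 15.3 FPKM in control replicate 2. Beside this transcript the coding form made up 94.8% and 93.4% of their sum under sh-MFAP2 and 89.9% in control replicate 1, but 35.7% in control replicate 2, while the gene level of LTBP4 in that library, 12.9 FPKM, was within the range of the others. Over all members, 13 transcripts were tested, 8 of them of LTBP4. None was called or had an unadjusted p under 0.05 in limma, and of all 22312 transcripts tested 0% were called, with 1704 at an unadjusted p under 0.05.

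TGFB1 (ENSG00000105329, chromosome 19 from 41301587 to 41353911, minus strand) encodes the ligand that the LTBPs store. It had 30.9 FPKM in sh-MFAP2 replicate 1, 32.7 FPKM in sh-MFAP2 replicate 2, 32.1 FPKM in control replicate 1 and 15.2 FPKM in control replicate 2. In words, 3 libraries were alike and control replicate 2 had less than 50% of the next lowest level. On the log2(FPKM + 1) scale the difference was 0.50 (standard error 0.390, 95% interval -0.61 to 1.61, adjusted p = 0.601 from limma). Without control replicate 2 it was -0.01, so the positive value rested on that library. Behind the values lay 1830 to 3063 inferred units.

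The low value came from the coding transcript. ENST00000221930 had 36.0, 37.9 and 37.3 FPKM in the first 3 libraries and 17.4 FPKM in control replicate 2, whereas the transcript with the next highest mean, the retained intron form ENST00000600196, had 0.504 and 1.40 FPKM under sh-MFAP2, compared with 0.484 and 0.861 FPKM in control. A library under 50% of the next lowest was found for 6.07% of all genes tested (599 genes), and in 128 of these the low library was control replicate 2. This way of counting was chosen after the TGFB1 values were seen. CCDC97, which lies on the opposite strand within the annotated span of TGFB1 and shares none of its exonic bases, was low in the same library, with 20.7 and 17.7 FPKM under sh-MFAP2, compared with 18.4 and 6.34 FPKM in control. HNRNPUL1, on the opposite strand, shares 215 exonic bases with TGFB1 and had 54.4 and 52.7 FPKM under sh-MFAP2, compared with 59.1 and 63.5 FPKM in control. Whether the libraries kept the strand is not stated, so reads from shared bases could not be assigned with certainty.

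Of the companion genes tested, the 3 whose pattern over the 4 libraries was most like that of TGFB1 were TGFBR1 (Pearson r = 0.999), KLF10 (r = 0.959) and TAGLN (r = 0.932), measured on log2(FPKM + 1). These are descriptions over 4 libraries in which 1 low library sets most of the value, and they carry no test. An r at least as high as that of TGFBR1 was found for 0.0709% of the genes tested, as that of KLF10 for 2.25% and as that of TAGLN for 3.31%. TGFBR1, the type I receptor of TGF-beta, had 6.83 and 7.23 FPKM under sh-MFAP2, compared with 7.39 and 2.35 FPKM in control. The ligand gene and this receptor gene were thus low in the same control library.

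TGFB2 (ENSG00000092969, chromosome 1 from 218346235 to 218444619, plus strand), a second ligand with its own latent complex, had 0 and 0.00323 FPKM under sh-MFAP2, compared with 0.0401 and 0.00496 FPKM in control. Both sh-MFAP2 libraries lay below both controls. Only control replicate 1, with 6.10 inferred units, was above the floor of 3 units, so no fold change is given. TGFB2 shares 1371 exonic bases with the overlapping transcript TGFB2-OT1 on the same strand, which was listed at 0 in all 4 libraries.

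Of the 4 members tested (LTBP1, LTBP3, LTBP4 and TGFB1), none was called at a limma p under 0.01 with an adjusted p under 0.05, where 0.273% of all genes tested were called (27 genes). None had an unadjusted p under 0.05, against 12.3% of all genes. In all 4 the groups overlapped, whereas 48.9% of the genes tested had groups that did not overlap. The median log2 fold change of the 4 was 0.12, beside -0.05 for all genes tested.

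The genes around the latent complex were examined with 5 companion lists, made from general knowledge of the pathway. They held 89 genes, of which 38 were tested. None was called. At an unadjusted p under 0.05 in limma, 9 of the 38 were lower in sh-MFAP2, where 8.41% of all genes tested were lower at that level. At the same level 2 of the 38 were higher, where 3.89% of all genes tested were higher. At an unadjusted p under 0.01, 3 of the 38 were lower and 1 of the 38 was higher, against 3% of all genes in either direction. The groups did not overlap in 23 of the 38, of which 17 were lower and 6 higher in sh-MFAP2. Over all genes tested 31.4% were lower and 17.5% higher in this way. Over the 38 genes the median log2 fold change was -0.13.

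Genes that process or release latent TGF-beta held the smallest unadjusted p of the companion genes, that of FURIN. It encodes the protease that cuts the ligand from its propeptide and had 15.4 and 14.4 FPKM under sh-MFAP2, compared with 39.3 and 43.9 FPKM in control. Every sh-MFAP2 value was far under every control value. The difference on the log2 scale was -1.42 (standard error 0.119, unadjusted p = 0.00039 and adjusted p = 0.0875 from limma), which did not pass the adjusted threshold. ITGAV, the alpha v integrin subunit that binds the propeptide, had 4.71 and 22.8 FPKM under sh-MFAP2, compared with 33.6 and 33.1 FPKM in control. The groups did not overlap, but the sh-MFAP2 libraries differed widely, and the difference on the log2 scale was -1.56 (standard error 0.757, adjusted p = 0.473 from limma). It was -0.53 without sh-MFAP2 replicate 1 and -2.59 without sh-MFAP2 replicate 2.

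ITGB6, the beta 6 subunit that pairs with alpha v, had 3.83 and 3.76 FPKM under sh-MFAP2, compared with 6.11 and 5.27 FPKM in control (log2 fold change -0.48, adjusted p = 0.352 from limma). MMP14, a membrane-bound matrix metalloproteinase, had 66.0 and 45.6 FPKM against 54.5 and 62.8 FPKM, with overlapping groups. In this list of 11 genes 7 were tested, and FURIN and ITGB6 were the 2 lower at an unadjusted p under 0.05 in limma. Over all genes tested 8.41% were lower at that level. The median log2 fold change of the list was -0.20, beside -0.05 for all genes tested.

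**Figure D3:**
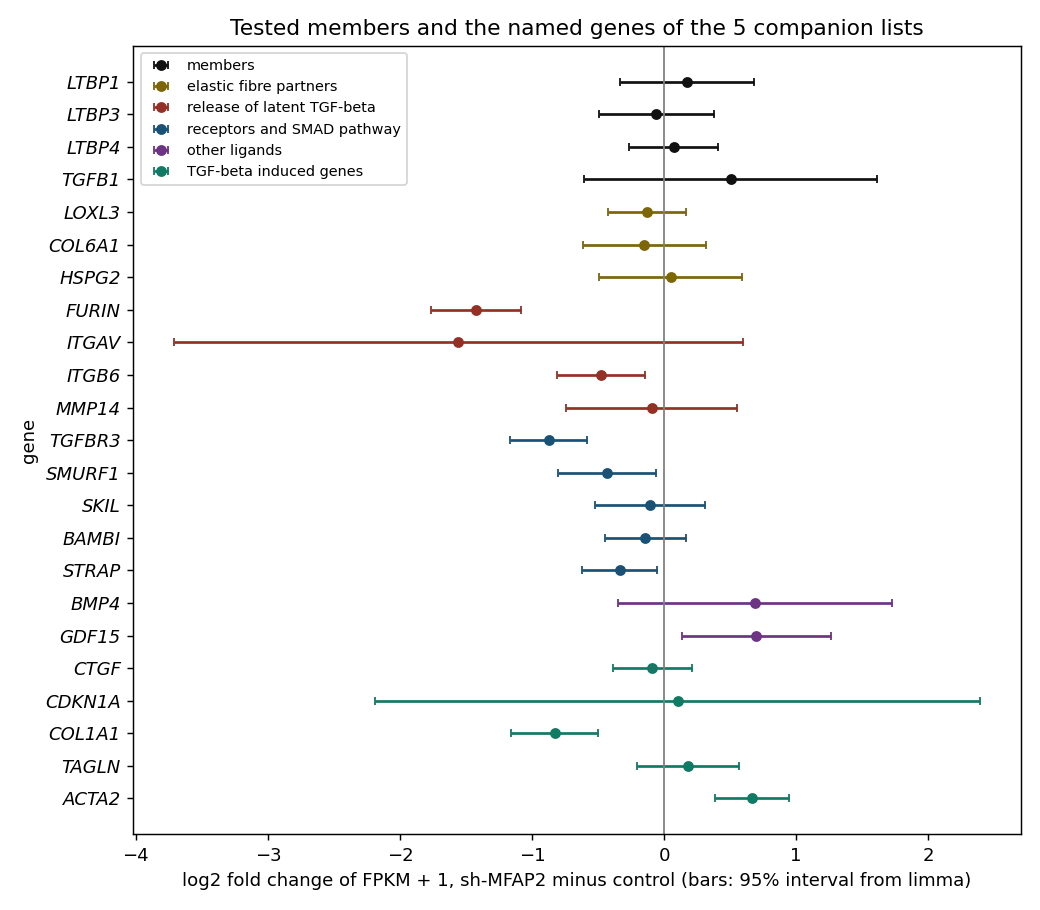
Log2 fold change of FPKM + 1, sh-MFAP2 minus control, for the 4 members tested and the named genes of the 5 companion lists, with 95% intervals from limma; colours mark the lists and JUNB is left out because it was listed at 0 in 3 libraries. The intervals of the 4 members include 0, whereas that of FURIN runs from -1.76 to -1.08.

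Of 16 genes for receptors and the SMAD pathway 13 were tested, and 3 were lower and none higher at an unadjusted p under 0.05 in limma. Over all genes tested the shares were 8.41% lower and 3.89% higher. TGFBR3, the co-receptor betaglycan, had 1.04 and 1.14 FPKM under sh-MFAP2, compared with 2.92 and 2.74 FPKM in control, with a log2 fold change of -0.87 (standard error 0.103, unadjusted p = 0.0014 and adjusted p = 0.162 from limma). SMURF1, a ubiquitin ligase that acts on receptors and SMADs, had 6.45 and 7.16 FPKM against 8.79 and 10.3 FPKM. STRAP, a WD-repeat protein that binds the receptors, had 44.8 and 45.7 FPKM against 57.2 and 57.6 FPKM. For SMURF1 and STRAP the log2 fold changes were -0.43 and -0.34, each with an adjusted p = 0.394 from limma.

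BAMBI, a receptor-like protein without a kinase, had 29.1 and 31.7 FPKM under sh-MFAP2, compared with 33.6 and 33.7 FPKM in control. SKIL, a repressor of SMAD activity, had 17.2 and 18.3 FPKM against 21.2 and 17.2 FPKM. TGFBR2, the type II receptor, which the rule for naming genes does not include, had 13.1 and 3.50 FPKM under sh-MFAP2, compared with 5.36 and 6.01 FPKM in control, so that the sh-MFAP2 libraries enclosed the controls. Each of the 3 receptor genes thus had its own pattern over the libraries.

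**Figure D4:**
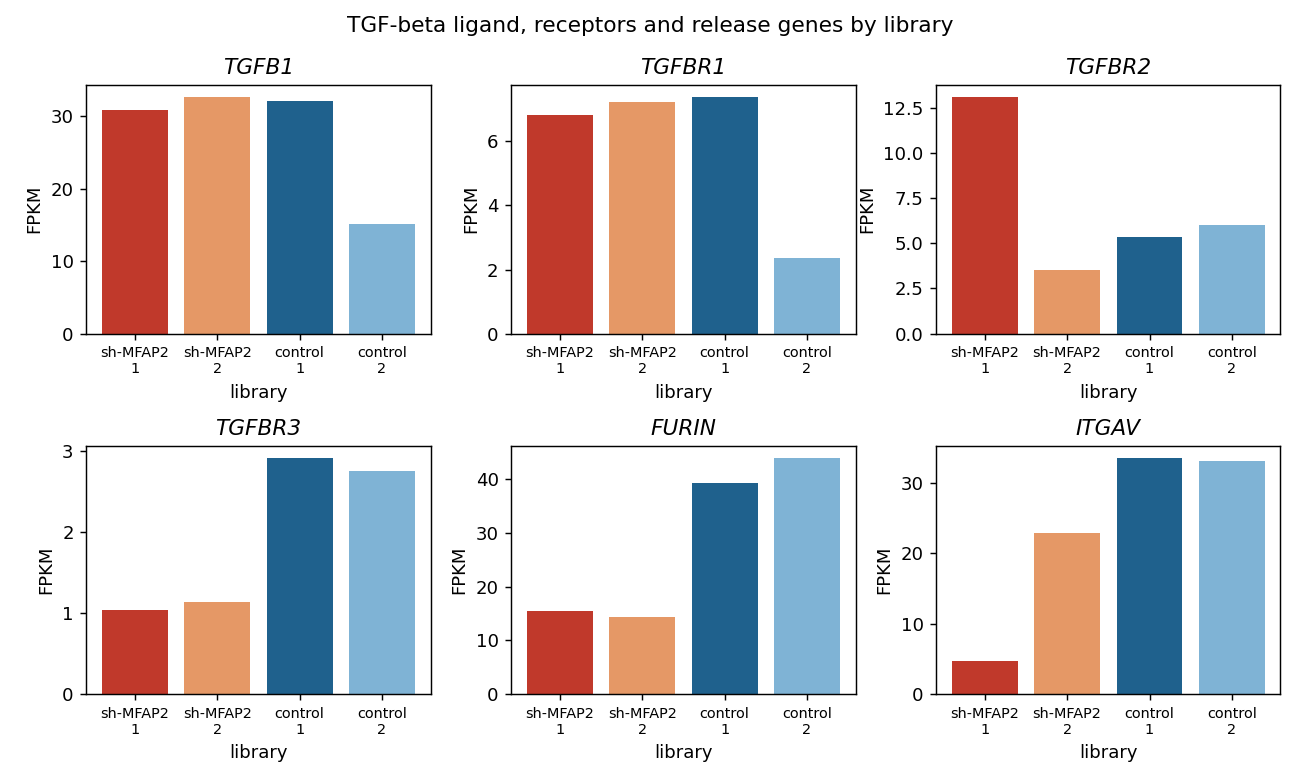
Level in each library, in FPKM, of the ligand TGFB1, the receptors TGFBR1, TGFBR2 and TGFBR3, and the release genes FURIN and ITGAV; each bar is 1 library and each axis starts at 0. TGFB1 and TGFBR1 are low in control replicate 2 alone (15.2 and 2.35 FPKM), while TGFBR3 and FURIN are lower in both sh-MFAP2 libraries than in both controls.

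Among 12 other ligands of the same superfamily 2 were tested. GDF15, a divergent member induced by cell stress, had 38.2 and 52.9 FPKM under sh-MFAP2, compared with 28.5 and 26.2 FPKM in control (log2 fold change 0.70, adjusted p = 0.389 from limma), and was the gene higher at an unadjusted p under 0.05. BMP4, a bone morphogenetic protein, had 7.67 and 7.06 FPKM against 2.71 and 6.23 FPKM (log2 fold change 0.69, adjusted p = 0.496 from limma). Its value was 0.21 without control replicate 1, the lowest library, and 1.17 without control replicate 2. The groups of both genes did not overlap.

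Genes known to be induced by TGF-beta did not share a direction. Of 27 such genes 16 were tested, with 4 lower and 1 higher at an unadjusted p under 0.05 in limma. Over all genes tested 8.41% were lower and 3.89% higher at that level. The median log2 fold change of the list was -0.15, with 10 of 16 below 0. Among all genes tested 5722 of 9873 were below 0, with a median of -0.05. ACTA2, smooth muscle actin, was the higher gene, with 2.55 and 2.62 FPKM under sh-MFAP2, compared with 1.24 and 1.28 FPKM in control (log2 fold change 0.67, unadjusted p = 0.0030 and adjusted p = 0.238 from limma). COL1A1, a chain of collagen I, had 2.27 and 2.07 FPKM under sh-MFAP2, compared with 4.36 and 4.92 FPKM in control (log2 fold change -0.83, unadjusted p = 0.0024 and adjusted p = 0.221 from limma). The fibroblast marker PDGFRA moved with COL1A1, at 2.47 and 2.43 FPKM under sh-MFAP2, compared with 5.17 and 5.27 FPKM in control, while the other 8 fibroblast markers were under 0.1 FPKM, and the part of such cells in these values was not tested.

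The other 3 lower genes, named after their values were seen, were TGIF1, BHLHE40 and NEDD9, with log2 fold changes of -0.60, -0.38 and -0.39. CTGF, a matricellular protein, had 77.8 and 74.0 FPKM under sh-MFAP2, compared with 79.8 and 81.9 FPKM in control. TAGLN, an actin-binding protein, had 57.4 and 62.3 FPKM against 56.8 and 48.6 FPKM. CDKN1A, a cell cycle inhibitor, had 25.2 and 77.0 FPKM under sh-MFAP2, compared with 23.8 and 70.7 FPKM in control. The spread within each group was far wider than the gap between the groups, and the higher library had the same replicate number in both. JUNB, an early response transcription factor, had 84.4 FPKM in control replicate 1 and was listed at 0 in the other 3 libraries, so no fold change is given.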

How the data were processed

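RNA-seq of 4 AGS libraries (2 sh-MFAP2, 2 control) was analysed from the gene and transcript tables that the authors deposited. The deposited values are not named in the files and were taken as FPKM, because they are fractional, have unequal sums and step by count over length. The labels name hg38, and the aligner, program and annotation are not given in the sources used here. Of 47251 gene identifiers, 43715 (92.5%) were found in GENCODE 29, which gave the coordinates on GRCh38.

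Genes whose mean reached 1 FPKM (9873), and transcripts likewise (22312), were compared as log2(FPKM + 1) by lmFit and trended eBayes of limma 3.58.1 (R 4.3.3). P-values were adjusted over all features tested by the Benjamini-Hochberg method. The pseudocount of 1 understates changes of low genes. Called genes had p under 0.01 and adjusted p under 0.05, the thresholds of the study. The fit was also run on simulated data, with variances drawn from the fitted model and a change larger than that of any member tested. That run does not show whether changes as small as those of the members would be found. Tables and figures used Python 3.11.15, pandas 2.3.3, numpy 2.4.6 and matplotlib 3.10.9. Depth was inferred from the spacing of low values, of which 49.7% to 52.4% lay within 0.05 of a whole step (10% by chance). Values midway between steps also occurred, so a unit may be a pair of reads. Whole reads were therefore not recovered, no count test was used and no counting intervals can be given from FPKM.

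The members, lists and comparisons were chosen with earlier results of these data known. Named were all 10 members, in each companion list the 4 tested genes with the highest mean and any gene called or with an unadjusted p under 0.01, and the 3 companion genes most like the highest member. Of each member tested, the 2 transcripts with the highest mean were named. Other genes and transcripts are described after their values were seen. Replicate numbers were not taken to pair the libraries, since the deviations of libraries with the same number had a correlation of -0.0572 over the genes tested.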

Additional observations from a re-analysis of the deposited data

How the results depend on the processing

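The number of members called stayed at 0 in all 11 alternatives, of companion genes in all 11 and of member transcripts in all 3. These covered other filters, a pseudocount of 0.1, other scalings, eBayes without trend, the replicate block and each library left out in turn, where no gene of the whole table was called and the lone library of a group was assumed to vary like the others. With the replicate number as a block no gene of the whole table was called, so the 0 there carries no information. The block cannot change log2 fold changes in this balanced layout, and TGFB1 was 0.50 with and without it. Among transcripts only the fit with a pseudocount of 0.1 called any (5 of 22312), so the other fits called no member transcript by default. The numbers were not taken to pair the libraries, and how many genes follow them was not tested. The values of CDKN1A did follow them, and its standard error was 0.806 without the block and 0.155 with it. At an unadjusted p under 0.05 in limma, at most 1 member and 14 companion genes were found in any alternative.

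Leaving out 1 library at a time gave log2 fold changes of -0.029 to 0.38 for LTBP1, -0.22 to 0.10 for LTBP3, -0.016 to 0.16 for LTBP4 and -0.013 to 1.02 for TGFB1, and each reversed. LTBP1 was -0.029 without sh-MFAP2 replicate 1. LTBP3 was 0.031 with quantile normalization and 0.10 without sh-MFAP2 replicate 2. LTBP4 was -0.016 without sh-MFAP2 replicate 1 and -0.10 as the sum of its transcripts. TGFB1 was -0.013 without control replicate 2 and 1.02 without control replicate 1. Quantile normalization moved the median of all genes from -0.05 to -8.72e-05. Of 214 fits of the 20 companion genes named, 206 kept their direction and 8, all with a library left out, reversed. The left-out range was -0.68 to 0.89 for CDKN1A (reversed without sh-MFAP2 replicate 2 or control replicate 1), -0.30 to 0.0022 for COL6A1 (without sh-MFAP2 replicate 2) and -0.16 to 0.26 for HSPG2 (without sh-MFAP2 replicate 1 or control replicate 1). It was -0.35 to 0.17 for MMP14 (without sh-MFAP2 replicate 2 or control replicate 2) and -0.25 to 0.037 for SKIL (without control replicate 1). Among genes that kept their direction it was -2.59 to -0.53 for ITGAV, 0.21 to 1.17 for BMP4, -0.20 to -0.083 for BAMBI, -0.13 to -0.054 for CTGF, -0.18 to -0.078 for LOXL3 and 0.072 to 0.29 for TAGLN. Beyond the library left out, the cause was not tested. Depth limits MFAP2, MFAP5 and TGFB2 most, since at least 2 libraries of each were under 3 inferred units.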

Other observations

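MFAP1, MFAP3 and MFAP3L share the symbol of the microfibril-associated proteins but were not counted among the microfibril genes. MFAP1, which encodes a spliceosome protein, had 21.6 and 21.5 FPKM under sh-MFAP2, compared with 20.6 and 25.0 FPKM in control, with overlapping groups. MFAP3 had 0.348 and 0.419 FPKM under sh-MFAP2, compared with 0.772 and 0.781 FPKM in control, and MFAP3L had 0.270 and 0.263 FPKM against 0.336 and 0.337 FPKM. For both of the latter the sh-MFAP2 libraries lay below the controls, at levels under the filter for testing.

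The epithelial marker CLDN4, a tight junction claudin, had 47.1 FPKM in sh-MFAP2 replicate 1 and 0.0151, 0.291 and 0.551 FPKM in the other libraries.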
